A study of Mus musculus with 30 samples.

Results

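Bicalutamide added to hydralazine was examined in the aorta of male mice with a vascular Ehlers-Danlos syndrome (VEDS) mutation. The 6 libraries described here, of 30 in the series, comprise the 3 aortas treated with hydralazine and bicalutamide (HB) and 3 of the 6 aortas treated with hydralazine alone. These 3 were selected on measured *Col3a1*, the gene of the type III collagen chain, as the hydralazine libraries with less than 10000 CPM of *Col3a1*, where CPM are counts scaled to the same total in every library, here by the total of the file and elsewhere with TMM factors, which also allow for differences in composition. They are called *Col3a1*-low hydralazine, and the other 3 *Col3a1*-high hydralazine. The choice uses a measured value and no label, so differences between HB and *Col3a1*-low hydralazine are descriptions without a test. Tests were made between labelled groups only, and a further fit of HB against hydralazine used the same *Col3a1* values as a covariate.

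The HB, HS and hydralazine groups were C57BL/6J males heterozygous for a glycine substitution in *Col3a1*, given in the labels as genotype Het. HB mice received hydralazine at 32 mg/kg/day and bicalutamide at 50 mg/kg/day, the antagonist from day 21, and their aortas were collected on day 60. HS mice received the same hydralazine with spironolactone at 100 mg/kg/day on the same schedule (3 libraries), and hydralazine mice received hydralazine alone, with aortas collected on day 30 or day 60 (6 libraries, ages not labelled). Hydralazine was given from birth in all of them, so no group isolates bicalutamide without it. For single transcripts, the 24 libraries of the series without an antagonist serve as a wider background. They are the 6 hydralazine libraries with 6 of untreated Het mice, 6 of wild-type (WT) mice on the same hydralazine and 6 of untreated WT mice, each collected on day 30 or day 60. Each library came from the descending thoracic aorta after perfusion, cleaned of surrounding fat. The study's published methods do not name removal of the adventitia (the outer layer), and fibroblast markers summed to 3254 CPM or more in every library.

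Androgens drive male-type gene expression in mouse tissues such as liver, kidney and muscle, and their levels rise at puberty. Bicalutamide is a nonsteroidal antiandrogen. Spironolactone is a steroid that blocks the mineralocorticoid receptor and, less strongly, the action of androgens. Hydralazine relaxes arterial smooth muscle and lowers blood pressure. In VEDS, mutant type III collagen chains weaken the arterial wall, and arterial rupture is its main cause of death.

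*Col3a1* stood at 6728, 6133 and 5677 CPM of the file total in HB, 7285, 7413 and 5173 CPM in HS, 7508, 5507 and 5704 CPM in *Col3a1*-low hydralazine and 15190.4, 15432 and 14836 CPM in *Col3a1*-high hydralazine. The 10000 CPM limit fell in a gap, with 7508 CPM just below it and 14836 CPM just above, and limits of 8000 or 12000 CPM selected the same libraries. Each of the other groups of 6 in the series also had 3 libraries on either side of the limit. Other growth-related genes separated the hydralazine libraries at the same place. Elastin (*Eln*) ranged from 4009.7 to 6406 CPM in *Col3a1*-low and from 13022 to 14244 CPM in *Col3a1*-high hydralazine, and the proliferation marker *Mki67* from 18.2 to 25.5 CPM and from 65.9 to 95.6 CPM in the same order. The HB range was 4245 to 4558 CPM for *Eln* and 14.6 to 33.3 CPM for *Mki67*, overlapping *Col3a1*-low and not *Col3a1*-high hydralazine. Because the labels give no library an age, whether the *Col3a1*-low libraries are the day 60 ones was not tested.

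**Figure D1:**
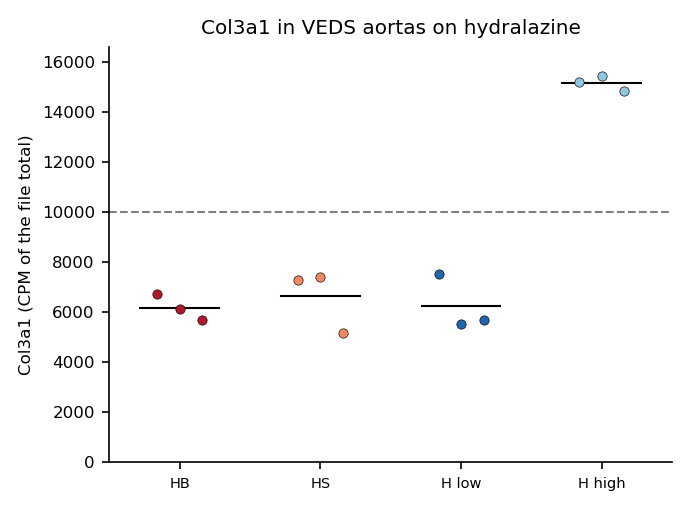
*Col3a1* in CPM of the file total (linear axis from 0) in VEDS aortas given HB, HS or hydralazine alone, with hydralazine libraries separated by the 10000 CPM limit (dashed line) into H low and H high. Dots are libraries and bars their means. HB and HS libraries lie below the limit, and the hydralazine libraries fall into 3 at 7508 CPM or less and 3 at 14836 CPM or more.

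The 12 HB, HS and hydralazine libraries held 5644869 to 8064586 counts, with 15849 to 16407 of 26253 listed genes detected. Smooth muscle markers were abundant throughout, the 7 genes summing to 29369.6, 26464 and 27010.5 CPM in HB and 25733, 26550.5 and 28665 CPM in *Col3a1*-low hydralazine. Liver-type transcripts were present in every library at levels that varied widely between them, heart transcripts were high in HB replicate 2, and genes of lipid synthesis were high in hydralazine replicate 1. These values are given beside the results they touch. In bulk tissue, fewer cells of a type and less RNA per cell cannot be told apart.

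The labelled comparison, HB against all 6 hydralazine libraries, called 2 genes, both higher in HB and both best known from liver. Of 13266 genes tested by edgeR's quasi-likelihood test with Benjamini-Hochberg adjustment, these 2 were 0.0151%, and 2051 had an unadjusted p under 0.05. *Sult2a7*, a sulfotransferase of the family that conjugates steroids and bile acids, stood at 4.07, 3.49 and 3.48 CPM in HB, against 0 CPM in all 3 *Col3a1*-low libraries and 0.171, 0 and 0 CPM in *Col3a1*-high hydralazine (log2 fold change 6.38 ± 0.54, adjusted p = 0.00257). *Mup15*, a major urinary protein that carries pheromones, stood at 13.1, 13.6 and 6.26 CPM in HB, against 0 CPM in all 3 *Col3a1*-low libraries and 0.171, 0.597 and 0 CPM in *Col3a1*-high hydralazine (6.24 ± 0.62, adjusted p = 0.00606). No hydralazine library reached an HB library for either gene.

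Both genes were sparse. Summed over 3 libraries, *Sult2a7* had 70 counts in HB and 0 in *Col3a1*-low hydralazine, at least 24.2-fold higher against a floor of 3 counts over the group, and *Mup15* had 204 and 0 counts, at least 70.4-fold higher. In all 6 hydralazine libraries *Sult2a7* had 1 count, a ratio of 144 with a 95% counting interval of 24.9 to 5753. HS also held both transcripts, with 5.88, 2.58 and 0.532 CPM of *Sult2a7* and 5.88, 2.09 and 0.133 CPM of *Mup15*. In the 24 libraries of the series without an antagonist *Sult2a7* totalled 3 counts, with 21 libraries at 0, while *Mup15* totalled 75 counts and reached 3.88 CPM. Without HB replicate 1 or HB replicate 2 only *Sult2a7* was called (1 gene each), and without hydralazine replicate 3, which held its 1 count, *Sult2a7* was not. Over the 9 fits that each left out 1 library, *Mup15* had an edgeR adjusted p of 0.00128 to 0.0660 and *Sult2a7* of 0.00377 to 0.0907. The count was 56 without hydralazine replicate 4 and 36 without hydralazine replicate 6.

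Hydralazine aortas were collected at 2 ages and HB aortas at 1, so the same 9 libraries were also fitted with log2 *Col3a1* as a covariate. The groups stayed as labelled, but *Col3a1* is also the value that selected the *Col3a1*-low libraries. Every HB library was on their side of the limit, so this fit rests mainly on the contrast of HB with *Col3a1*-low hydralazine. Its adjusted p-values are therefore not independent of that choice. Below, a gene called or passing in either fit is one called by edgeR, unless DESeq2 is named. DESeq2 called 573 of 14539 genes in the labelled comparison, 166 higher and 407 lower. Of the 13266 genes that edgeR tested it called 158 higher and 403 lower. The list counts below stand beside these, and beside 2051 of 13266 at an unadjusted p under 0.05 by edgeR. The covariate fit called 24 genes higher in HB (0.181% of those tested) and 52 lower (0.392%). Its count depended on single libraries, being 14, 30 and 6 without HB replicates 1, 2 and 3, 164, 16, 219, 31 and 40 without hydralazine replicates 1, 2, 4, 5 and 6, and 80 without hydralazine replicate 3. All 76 genes kept their direction in every fit that tested them. *Cyp2b10*, *Cyp2c55*, *Gstm3*, *Mup15* and *Sult2a7* were called in all 9 of these fits, and *Fga*, *Fgb*, *Fgg*, *Mup20*, *Mup3* and *Ttr* in 8. By description, 1077 genes were higher in every HB library than in every *Col3a1*-low library (8.12% of those tested) and 1046 were lower (7.88%). Against all 6 hydralazine libraries these counts were 502 (3.78%) and 609 (4.59%). Leaving out a library raised the first pair by over 1.5 times for HB replicates 2 and 3 (1831 and 1909 higher, 1805 and 1829 lower), for HB replicate 1 (1580 lower), and for hydralazine replicates 1, 2 and 6 (1778, 1636 and 1837 higher, 1720, 1621 and 1630 lower), since fewer libraries overlap less often.

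The gene-start regions of 3 liver-type genes are shown because *Mup15* and *Mup3*, members of one gene cluster, moved in opposite directions and *Cyp3a11* moved against the other hepatocyte markers. Each run gives 250 bases before to 50 bases after the start of the gene, from RefSeq on GRCm38.p6, for chr4:61439655-61439954 (*Mup15*, minus strand), chr4:62087268-62087567 (*Mup3*, minus strand) and chr5:145879805-145880104 (*Cyp3a11*, minus strand). Capitals mark the androgen response half-site AGAACA on either strand.
Mup15: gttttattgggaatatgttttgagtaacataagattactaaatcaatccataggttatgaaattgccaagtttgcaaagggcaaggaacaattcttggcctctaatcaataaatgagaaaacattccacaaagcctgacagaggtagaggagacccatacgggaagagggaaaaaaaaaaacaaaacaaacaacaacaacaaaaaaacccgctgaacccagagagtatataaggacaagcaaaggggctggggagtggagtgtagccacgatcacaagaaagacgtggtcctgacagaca
Mup3: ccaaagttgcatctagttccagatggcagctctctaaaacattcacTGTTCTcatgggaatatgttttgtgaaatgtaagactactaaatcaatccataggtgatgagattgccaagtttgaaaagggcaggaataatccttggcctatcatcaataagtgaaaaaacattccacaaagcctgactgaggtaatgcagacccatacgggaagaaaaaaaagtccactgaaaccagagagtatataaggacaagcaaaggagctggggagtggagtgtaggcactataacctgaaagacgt
Cyp3a11: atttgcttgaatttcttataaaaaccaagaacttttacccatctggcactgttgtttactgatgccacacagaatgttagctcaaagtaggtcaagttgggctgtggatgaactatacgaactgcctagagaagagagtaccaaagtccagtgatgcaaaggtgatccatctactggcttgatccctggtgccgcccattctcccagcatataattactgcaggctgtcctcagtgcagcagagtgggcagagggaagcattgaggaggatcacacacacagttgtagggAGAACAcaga
*Mup3* held the half-site once, as TGTTCT at base 47, *Cyp3a11* held it once, as AGAACA at base 291, and *Mup15* did not hold these letters. The half-site was present in 6233 of 32851 windows of the same length (19%) and in 4 of the 14 windows found for the 17 listed genes called with the *Col3a1* covariate (*Ahsg*, *Cyp3a11*, *Fgg* and *Serpina1a*). The palindrome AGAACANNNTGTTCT was in 3 windows of all (0.00913%) and the sterol regulatory element TCACCCCAC in 181 (0.551%), and neither was in the 14. These matches describe letters in a window and not binding.

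Plasma protein genes that the liver expresses were lower in HB than in hydralazine alone. Of 12 hepatocyte markers, all of which passed the filter on low counts, 11 were lower and 1 higher than in *Col3a1*-low hydralazine, with a median log2 difference of -1.57, beside 6614 higher and 6652 lower among all genes tested and a median of -0.000378. In 10 the HB libraries lay below every *Col3a1*-low library, beside 7.88% of all genes tested. With the *Col3a1* covariate 9 fell and 1 rose, while edgeR called 0 in the labelled comparison (11 at an unadjusted p under 0.05), where DESeq2 called 0 higher and 10 lower. *Alb*, the main plasma protein, stood at 554, 408 and 428 CPM in HB, against 1213, 1807 and 1447.7 CPM in *Col3a1*-low and 5351, 9119.5 and 6471 CPM in *Col3a1*-high hydralazine. Among these libraries the albumin gene thus ran highest where *Col3a1* was high, and HB was below both sets. Over all 30 libraries *Alb* ranged from 47.4 to 10913 CPM, and its lowest value was in a library without an antagonist.

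The 3 fibrinogen chains, which form the clot protein, moved alike. *Fgb* stood at 44.8, 35.7 and 29.1 CPM in HB and 122, 38.0 and 7.05 CPM in HS, against 125, 146 and 114 CPM in *Col3a1*-low hydralazine (log2 difference -1.81). With the covariate *Fgb* fell by 1.88 ± 0.23 on the log2 scale (edgeR, adjusted p = 0.00669), and *Fga* and *Fgg* had log2 fold changes of -1.80 ± 0.21 and -1.83 ± 0.23. The HB and *Col3a1*-low libraries did not overlap for any of the 3 chains. *Ttr*, the carrier of thyroid hormone and retinol-binding protein, stood at 46.8, 32.8 and 32.7 CPM in HB, against 103, 126 and 118 CPM in *Col3a1*-low hydralazine (-1.73 ± 0.21 with the covariate, adjusted p = 0.00669).

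The iron carrier *Trf* and the mineral-binding fetuin *Ahsg* were likewise lower, *Trf* at 250.5, 249 and 207 CPM in HB, against 507, 576 and 522 CPM in *Col3a1*-low hydralazine. *Ahsg* stood at 68.4, 62.0 and 43.0 CPM in HB, against 172, 228 and 229 CPM in *Col3a1*-low hydralazine. Their covariate fits gave -1.25 ± 0.18 and -1.99 ± 0.28, both past the threshold. Complement and protease inhibitor genes of liver were among the lowest p-values in the labelled comparison, though edgeR did not call them there. *C8a*, a chain of the membrane attack complex, stood at 8.15, 10.3 and 4.87 CPM in HB, against 26.6, 33.7 and 26.1 CPM in *Col3a1*-low hydralazine (labelled comparison -2.31 ± 0.36, edgeR adjusted p = 0.0883). *Mug2*, a murinoglobulin that traps proteases, stood at 6.28, 5.99 and 5.01 CPM in HB, against 25.5, 42.2 and 25.6 CPM in *Col3a1*-low hydralazine (-3.19 ± 0.50, adjusted p = 0.0883). Summed over the 12 markers, the level was 1656, 1439.8 and 1292 CPM in HB and 3516, 1385 and 366 CPM in HS, against 2788, 3776 and 3251 CPM in *Col3a1*-low and 9550.0, 16493 and 11463 CPM in *Col3a1*-high hydralazine. Over all 30 libraries this sum ranged from 222 to 22738 CPM, the lowest lying in none of these groups. The source of these transcripts in an aorta sample was not tested.

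Some genes of drug metabolism ran the other way. Of 21 listed, 20 passed the filter, 11 of which were higher and 9 lower than in *Col3a1*-low hydralazine (median 0.08). Beside 8.12% above and 7.88% below among all genes tested, 7 had every HB library above and 3 every HB library below. With the covariate 4 rose and 0 fell, namely *Cyp2b10*, *Cyp2c55*, *Cyp3a11* and *Ces2a*, while edgeR called 0 in the labelled comparison (9 at an unadjusted p under 0.05), where DESeq2 called 2 higher and 2 lower. In mouse liver the nuclear receptors CAR (*Nr1i3*) and PXR (*Nr1i2*) induce *Cyp2b10*, *Cyp2c55* and *Cyp3a11* when foreign compounds are present.

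*Cyp3a11*, the main drug-oxidising cytochrome of its subfamily, stood at 402, 366 and 351 CPM in HB, against 57.3, 80.9 and 104 CPM in *Col3a1*-low and 275, 492 and 311 CPM in *Col3a1*-high hydralazine. All HB libraries lay above *Col3a1*-low and overlapped *Col3a1*-high hydralazine, so that the labelled comparison gave 0.75 ± 0.57 and the covariate fit 2.06 ± 0.30 (edgeR, adjusted p = 0.0160). *Cyp2b10*, the classical CAR target, stood at 11.9, 15.8 and 10.1 CPM in HB, against 0.778, 1.74 and 0.639 CPM in *Col3a1*-low and 4.10, 7.46 and 6.86 CPM in *Col3a1*-high hydralazine, above every library of hydralazine alone. Its counts were 238 in HB and 20 in *Col3a1*-low hydralazine, a ratio of 12.3 with a 95% counting interval of 7.80 to 20.5, and the covariate fit gave 3.50 ± 0.40 (adjusted p = 0.00669). HS held 7.84, 4.83 and 10.8 CPM of the same gene.

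*Cyp2c55*, which oxidises arachidonic acid, stood at 7.64, 8.48 and 7.65 CPM in HB, against 0, 0.174 and 0.512 CPM in *Col3a1*-low hydralazine (4.65 ± 0.56 with the covariate, edgeR adjusted p = 0.00669). *Ces2a*, a carboxylesterase that cleaves ester drugs, stood at 33.9, 34.6 and 34.8 CPM in HB, against 7.78, 10.5 and 11.0 CPM in *Col3a1*-low hydralazine (1.74 ± 0.26, adjusted p = 0.0160). The glutathione transferase *Gstm3*, which was outside the list and named for its large difference, stood at 25.1, 51.9 and 43.4 CPM in HB, against 1.09, 2.97 and 2.05 CPM in *Col3a1*-low and 23.4, 30.9 and 15.7 CPM in *Col3a1*-high hydralazine (4.09 ± 0.51, adjusted p = 0.00741). For these 3 genes every HB library was above every *Col3a1*-low library. *Gsta1*, another glutathione transferase, had 52 counts in HB and 4 in *Col3a1*-low hydralazine, and *Cyp2b9* had 20 and 0 counts, at least 6.90-fold higher against 3 counts, but *Cyp2b9* ran at 12.8 to 14.8 CPM in *Col3a1*-high hydralazine. *Cyp2a5* stood at 20.0, 36.2 and 28.5 CPM in HB, against 4.98, 6.98 and 13.3 CPM in *Col3a1*-low and 21.0, 90.4 and 36.4 CPM in *Col3a1*-high hydralazine, and its log2 fold change was -0.05 ± 0.75 in the labelled comparison and 1.57 ± 0.58 with the covariate, neither past the threshold.

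In CPM the receptors themselves were not higher in HB. These levels were not set against *Alb*, which was lower in HB than in hydralazine alone, so they do not settle the ratio within liver-type RNA. *Nr1i3* stood at 1.36, 0.998 and 1.25 CPM in HB, against 1.40, 1.40 and 2.94 CPM in *Col3a1*-low hydralazine. *Nr1i2* stood at 2.04, 1.83 and 1.67 CPM in HB, against 1.71, 3.31 and 2.69 CPM in *Col3a1*-low hydralazine. *Por*, the electron donor of microsomal cytochromes, stood at 61.1, 72.7 and 68.8 CPM in HB, against 50.0, 49.2 and 62.5 CPM in *Col3a1*-low hydralazine, with overlapping libraries, and the transferase *Gsta3* at 29.5, 38.2 and 31.8 CPM in HB, against 46.7, 47.1 and 44.5 CPM in *Col3a1*-low hydralazine, lower in every HB library. Cytochrome, carboxylesterase and glutathione transferase genes have close copies among which the authors' counting can divide reads, so single members are uncertain.

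**Figure D2:**
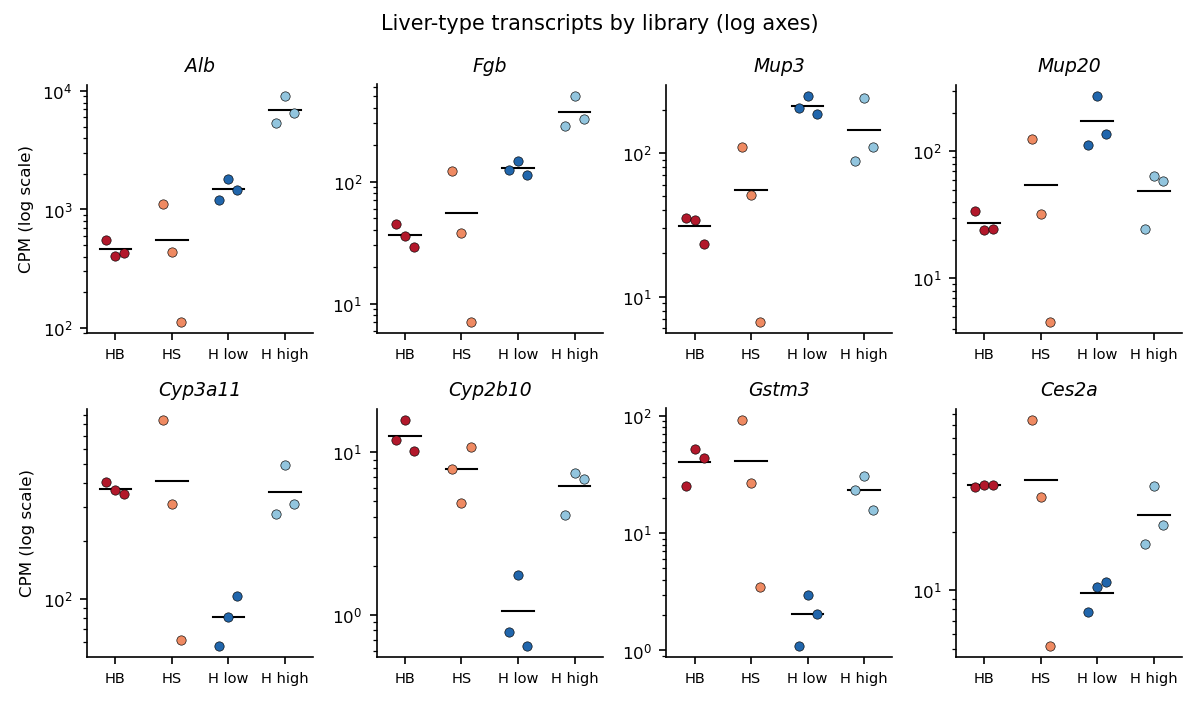
Levels in CPM (log axes) of the plasma protein genes *Alb* and *Fgb*, the major urinary protein genes *Mup3* and *Mup20*, and the drug-metabolising genes *Cyp3a11*, *Cyp2b10*, *Gstm3* and *Ces2a* in HB, HS, *Col3a1*-low (H low) and *Col3a1*-high (H high) hydralazine libraries. Dots are libraries and bars their arithmetic means. The 3 HB libraries lie below H low for the first 4 genes and above H low for the last 4.

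Major urinary protein genes, a cluster that androgen and pulsed growth hormone drive in male mouse liver, did not move as one. *Mup3* stood at 35.3, 34.3 and 23.2 CPM in HB, against 205, 249.95 and 186 CPM in *Col3a1*-low and 87.7, 239.5 and 109.6 CPM in *Col3a1*-high hydralazine (-2.55 ± 0.36 in the labelled comparison, adjusted p = 0.0883, and -2.77 ± 0.34 with the covariate, edgeR adjusted p = 0.00669). *Mup20*, the male pheromone darcin, stood at 34.1, 23.9 and 24.3 CPM in HB, against 113, 274 and 136 CPM in *Col3a1*-low and 24.6, 64.2 and 58.0 CPM in *Col3a1*-high hydralazine (-2.62 ± 0.35 with the covariate, adjusted p = 0.00981). Both were lower in HB than in every *Col3a1*-low library, while the *Col3a1*-high range of *Mup20* overlapped HB. *Mup7* showed the widest spread of the cluster, at 0, 4.32 and 0.417 CPM in HB, against 109, 116 and 59.8 CPM in *Col3a1*-low and 0, 0 and 0 CPM in *Col3a1*-high hydralazine (log2 difference -6.13, -6.14 ± 1.06 with the covariate, adjusted p = 0.0351).

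*Mup11* was also lower, at 2.04, 5.32 and 1.67 CPM in HB, against 19.0, 18.3 and 18.8 CPM in *Col3a1*-low hydralazine, and was called in neither fit nor by DESeq2. *Mup15* and *Mup17* were higher. *Mup17* stood at 19.9, 22.3 and 9.73 CPM in HB, against 3.11, 3.14 and 4.73 CPM in *Col3a1*-low and 0, 0.448 and 0 CPM in *Col3a1*-high hydralazine (2.41 ± 0.46 with the covariate, adjusted p = 0.0461). It was called in 3 of 9 covariate fits that each left out 1 library. The cluster's members are closely similar in sequence, so reads can be divided among them by the counting, and each value is uncertain at the level of a single gene. Several other liver-type genes were lower in every HB library than in every *Col3a1*-low library. The organic anion transporter *Slco1a1* stood at 3.05, 3.33 and 2.36 CPM in HB, against 18.7, 18.8 and 22.9 CPM in *Col3a1*-low hydralazine (-2.78 ± 0.49, adjusted p = 0.0351). The steroid dehydrogenase *Hsd3b5*, chosen after its values were seen, stood at 1.53, 0.998 and 0.278 CPM in HB, against 7.78, 7.15 and 7.03 CPM in *Col3a1*-low hydralazine (-2.94 ± 0.51, adjusted p = 0.0351), and *Selenbp2* at 6.45, 11.1 and 1.25 CPM in HB, against 39.7, 50.2 and 27.4 CPM in *Col3a1*-low hydralazine. With 1 library left out *Hsd3b5* was called in 2 of the 6 covariate fits that tested it. *Serpina1e*, one of several alpha-1 antitrypsin genes, stood at 12.2, 17.0 and 3.34 CPM in HB, against 232, 353 and 271 CPM in *Col3a1*-low hydralazine (-4.71 ± 0.68, adjusted p = 0.0160). The gluconeogenic phosphatase *G6pc*, at 8.82, 1.50 and 1.53 CPM in HB, against 13.4, 45.0 and 23.5 CPM in *Col3a1*-low hydralazine, and the insulin-like growth factor carrier *Igfbp1*, at 3.22, 1.66 and 0.139 CPM in HB, against 7.47, 13.6 and 6.78 CPM in *Col3a1*-low hydralazine, were lower in every HB library, were called in neither edgeR fit and were called by DESeq2.

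Because the amount of liver-type RNA differed between libraries, each transcript was also set against *Alb* within its library, a ratio chosen after the values were seen and given without a test. Per 1000 CPM of *Alb*, *Cyp3a11* ranged from 726 to 898 in HB and 549 to 761 in HS, against 19.7 to 83.3 in the 24 libraries without an antagonist. *Ces2a* ranged from 61.2 to 84.7 in HB and 46.3 to 68.4 in HS, against 2.12 to 12.1 in the 24. In these genes no library without an antagonist reached the lowest HB or HS library. *Gstm3* ranged from 45.3 to 127, 30.9 to 83.3 and 0 to 5.52 in the same order, and *Cyp2c55* from 13.8 to 20.8, 8.31 to 14.9 and 0 to 0.409. *Sult2a7* ranged from 7.35 to 8.55 in HB and 4.75 to 5.86 in HS, against 0 to 0.0387. *Cyp2b10* ranged from 21.4 to 38.7 in HB and 7.06 to 96.2 in HS, against 0.104 to 12.1, where HS overlapped the 24 libraries and HB did not. That upper end was in untreated Het mice, while the highest ratios were 0.838 in untreated WT and 1.41 in WT hydralazine libraries. *Alb* fell to 47.4 CPM among the 24, and at such levels few counts set a ratio.

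Other transcripts differed in how their ratio to *Alb* compared. *Fgb* stood at 80.8, 87.6 and 67.9 per 1000 CPM of *Alb* in HB, against 103, 80.9 and 78.6 in *Col3a1*-low hydralazine, and *Ttr* at 84.5, 80.2 and 76.3 in HB, against 85.2, 69.9 and 81.8, with overlapping libraries in both. *Mup20* stood at 61.5, 58.7 and 56.8 in HB, against 93.2, 152 and 94.0 in *Col3a1*-low hydralazine, and *Mup3* at 63.7, 83.9 and 54.2 in HB, against 169, 138 and 128. For this pair every HB library was below every *Col3a1*-low library. The same held for *Serpina1e*, at 22.0, 41.5 and 7.79 in HB, against 192, 196 and 188 in *Col3a1*-low hydralazine, and for *Slco1a1*, at 5.51, 8.15 and 5.52 in HB, against 15.4, 10.4 and 15.8. Over the 24 libraries, which span both genotypes and both sides of the *Col3a1* limit, *Mup20* ranged from 2.79 to 155 and *Mup3* from 16.4 to 212, so that HB lay within them. *Mup15*, at 14.6 to 33.4 in HB and 1.19 to 5.29 in HS, was exceeded by 1 of the 24, an untreated Het library at 81.8.

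**Figure D3:**
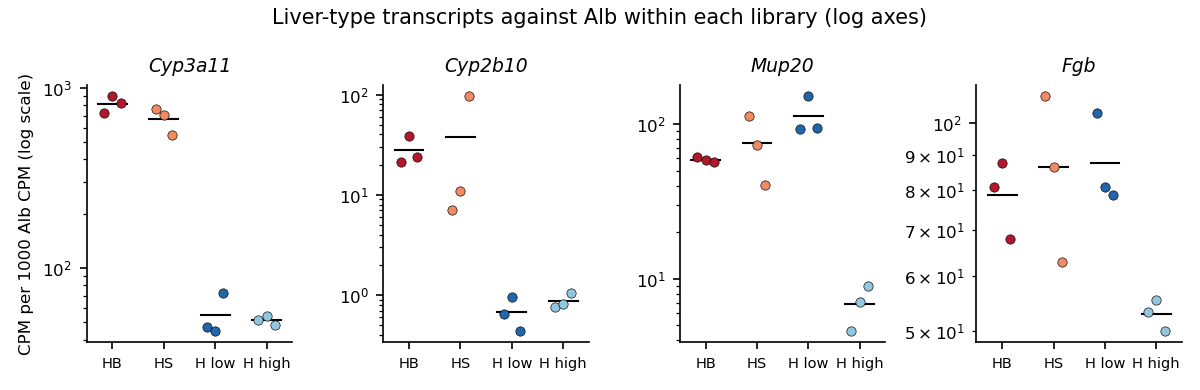
CPM of *Cyp3a11*, *Cyp2b10*, *Mup20* and *Fgb* per 1000 CPM of *Alb* in the same library (log axes), in HB, HS, *Col3a1*-low (H low) and *Col3a1*-high (H high) hydralazine. Dots are libraries and bars their arithmetic means. *Cyp3a11* lies at 726 or more in HB and at 83.3 or less in all libraries without an antagonist, while *Fgb* overlaps between HB and H low and *Mup20* is lower in HB than in H low.

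*Nr3c2*, the mineralocorticoid receptor, stood at 44.8, 41.2 and 39.5 CPM in HB, against 43.8, 47.3 and 45.9 CPM in *Col3a1*-low and 27.5, 26.3 and 25.7 CPM in *Col3a1*-high hydralazine. Its HB libraries overlapped *Col3a1*-low and lay above *Col3a1*-high hydralazine, so that its log2 fold change was 0.20 ± 0.21 in the labelled comparison and -0.11 ± 0.10 with the covariate.

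Of 20 listed steroid receptors and cofactors 18 passed the filter, with 12 higher and 6 lower (median 0.04). Without overlap, beside 8.12% above and 7.88% below among all genes tested, 4 lay above and 2 below. The coactivator *Ncoa1* stood at 68.7, 59.2 and 61.5 CPM in HB, against 54.0, 53.7 and 54.7 CPM in *Col3a1*-low hydralazine. The steroid 5-alpha reductase *Srd5a1*, which makes dihydrotestosterone, stood at 4.58, 3.82 and 3.61 CPM in HB, against 7.16, 6.63 and 6.39 CPM in *Col3a1*-low hydralazine. *Hsd11b1*, which regenerates active glucocorticoid, stood at 12.9, 12.6 and 15.4 CPM in HB, against 23.2, 29.1 and 32.2 CPM in *Col3a1*-low hydralazine. The last pair were lower in every HB library, and none of the 18 was called with the covariate. Of these 18, edgeR called 0 in the labelled comparison (2 at an unadjusted p under 0.05), where DESeq2 called 0 higher and 1 lower (*Hsd11b1*).

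Genes known to respond to androgen in prostate or muscle did not shift together. Of 30 listed, 29 passed the filter, with 17 higher and 12 lower and a median of 0.03, and 1 lay above and 2 below without overlap, a share under that of all genes. *Fkbp5*, a receptor cochaperone that androgen and glucocorticoid both induce, stood at 13.9, 29.1 and 9.87 CPM in HB, against 9.50, 6.80 and 21.2 CPM in *Col3a1*-low hydralazine, with overlapping libraries. *Pmepa1*, which androgen induces in human prostate and which limits TGF-beta signalling, stood at 182, 169 and 179.8 CPM in HB, against 164, 166 and 142 CPM in *Col3a1*-low hydralazine. The fatty acid elongase *Elovl5* stood at 74.7, 70.5 and 73.8 CPM in HB, against 97.9, 78.5 and 78.9 CPM in *Col3a1*-low hydralazine. None of the 29 was called with the covariate, and edgeR called 0 in the labelled comparison (4 at an unadjusted p under 0.05), where DESeq2 called 0 higher and 0 lower.

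Among the listed matrix genes, *Fn1* rose and *Mmp3* fell in the edgeR fit with the covariate, which called no other. Neither was called by edgeR in the labelled comparison. The adjusted p-values of the covariate fit are not independent of how the *Col3a1*-low libraries were chosen. *Fn1*, an adhesive glycoprotein of the vessel wall, stood at 2478, 2688 and 2383 CPM in HB and 2174, 1813 and 1845 CPM in HS, against 1625, 1844 and 1702 CPM in *Col3a1*-low and 1565, 1939 and 1673 CPM in *Col3a1*-high hydralazine. No hydralazine library reached the lowest HB library. The labelled comparison gave 0.53 ± 0.09 (edgeR, adjusted p = 0.0941) and the covariate fit 0.53 ± 0.09 (adjusted p = 0.0272), and the gene was called in 3 of 9 fits that each left out 1 library (adjusted p 0.00363 to 0.110). Of the 19 proteoglycan and adhesive matrix genes, all tested, 13 were higher and 6 lower (median 0.13). There were 7 above and 1 below every *Col3a1*-low library, and 7 above every hydralazine library. Among all genes tested these shares were 8.12%, 7.88% and 3.78%.

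The 7 were *Fn1*, *Bgn*, *Podn*, *Prelp*, *Tnxb*, *Comp* and *Postn*, of which edgeR called *Fn1* alone, with the covariate. Of the 19 genes, edgeR called 0 in the labelled comparison (7 at an unadjusted p under 0.05), where DESeq2 called 3 higher and 0 lower (*Bgn*, *Fn1* and *Tnxb*). *Bgn*, the small proteoglycan biglycan, stood at 1853, 1845 and 1721 CPM in HB, against 1429, 1458.4 and 1414 CPM in *Col3a1*-low and 1224, 1414 and 1268 CPM in *Col3a1*-high hydralazine (0.33 ± 0.07 with the covariate, adjusted p = 0.0602 by edgeR). *Podn*, another small leucine-rich proteoglycan, stood at 20.0, 21.1 and 21.1 CPM in HB, against 14.9, 14.3 and 13.2 CPM in *Col3a1*-low hydralazine. *Tnxb*, the tenascin X gene, stood at 491, 469 and 488 CPM in HB, against 395, 409.2 and 408 CPM in *Col3a1*-low hydralazine. *Ogn*, which encodes mimecan, was the 1 gene below, at 1126, 1246 and 1303 CPM in HB, against 1323, 1353 and 1319.7 CPM in *Col3a1*-low hydralazine. *Dcn*, the collagen-binding decorin, overlapped at 1007, 1108 and 1216 CPM in HB, against 1104, 1223 and 1207 CPM in *Col3a1*-low hydralazine.

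Basement membrane genes were mostly higher in HB than in *Col3a1*-low hydralazine. Of 21 listed, 20 passed the filter, with 17 higher and 3 lower (median 0.18). Without overlap, beside 8.12% above and 7.88% below among all genes tested, 6 lay above and 2 below. None was called with the covariate, and edgeR called 0 in the labelled comparison (5 at an unadjusted p under 0.05), where DESeq2 called 0 higher and 0 lower. Perlecan (*Hspg2*), the large heparan sulfate proteoglycan, stood at 1499, 1346 and 1254 CPM in HB, against 1014, 1036 and 944 CPM in *Col3a1*-low and 1191, 1487 and 1341 CPM in *Col3a1*-high hydralazine, so that HB lay above *Col3a1*-low and overlapped *Col3a1*-high hydralazine. *Lamb2*, a laminin chain of vessel walls, stood at 914, 774 and 809 CPM in HB, against 646, 750.2 and 744 CPM in *Col3a1*-low hydralazine. *Col15a1*, a collagen at the edge of basement membranes, stood at 536, 414 and 362 CPM in HB, against 317, 329 and 338 CPM in *Col3a1*-low hydralazine. *Fras1*, a basement membrane adhesion protein, stood at 8.66, 12.8 and 15.7 CPM in HB, against 6.23, 5.41 and 4.22 CPM in *Col3a1*-low hydralazine, the largest difference in the list (log2 difference 1.13).

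Elastic fibre genes showed a smaller shift. Of 19, all tested, 15 were higher and 4 lower (median 0.11, and 0.19, 0.05 and 0.07 without hydralazine replicates 1, 2 and 6). Beside 8.12% of all genes tested, 4 lay above every *Col3a1*-low library. These were the latent TGF-beta binding proteins *Ltbp3* and *Ltbp4*, *Fbln1* and the elastin crosslinking enzyme *Loxl1*. *Ltbp4* stood at 340.3, 343 and 338 CPM in HB, against 211, 251 and 199 CPM in *Col3a1*-low hydralazine and *Ltbp3* at 208, 183 and 184 CPM in HB, against 151, 152 and 134 CPM in *Col3a1*-low hydralazine, with covariate fits of 0.61 ± 0.14 and 0.40 ± 0.08 (edgeR, adjusted p = 0.0777 and 0.0521). None of the 19 was called with the covariate, while edgeR called 0 in the labelled comparison (4 at an unadjusted p under 0.05), where DESeq2 called 2 higher and 0 lower (*Ltbp3* and *Ltbp4*). *Eln* itself overlapped, at 4558, 4337 and 4245 CPM in HB, against 6406, 4009.7 and 4386 CPM in *Col3a1*-low hydralazine. The 10 fibrillar collagen genes include *Col3a1*, on which the *Col3a1*-low libraries were selected, so that their count and median are in part set by that choice. Of the 10, 9 passed the filter, with 5 higher and 4 lower (median 0.01). This median was 0.16, -0.072 and -0.034 without hydralazine replicates 1, 2 and 6, and -0.065 without HB replicate 1. *Col1a2*, a chain of type I collagen, stood at 4279, 3710.1 and 3480.5 CPM in HB, against 3467, 3087 and 2835 CPM in *Col3a1*-low hydralazine, and *Col5a1*, a chain of type V collagen, at 893, 757 and 749 CPM in HB, against 674, 632 and 646 CPM in *Col3a1*-low hydralazine, with every HB library above *Col3a1*-low and below *Col3a1*-high hydralazine.

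Of the 6 matrix genes that the study ties to the blocking of androgen action, a list the study chose on samples of this series and so not independent evidence of its direction, 5 were higher and 1 lower (median 0.24). The study compared treated with untreated VEDS aortas. The reference here is hydralazine alone, so the counts for these 6 genes do not repeat the study's contrast. *Col1a2*, *Fras1* and the integrin chain *Itga4*, at 34.3, 30.4 and 36.7 CPM in HB, against 26.0, 24.1 and 25.3 CPM in *Col3a1*-low hydralazine, did not overlap, and *Eln*, *Mfap5* and *Fstl1* did. Among all genes tested 8.12% had every HB library above every *Col3a1*-low library. None of the 6 was called with the covariate, and edgeR called 0 in the labelled comparison (1 at an unadjusted p under 0.05), where DESeq2 called 0 higher and 0 lower. Matrix proteases and their inhibitors had 11 of 21 higher and 10 lower. *Mmp3*, stromelysin, which degrades proteoglycans and fibronectin, stood at 27.5, 22.9 and 25.4 CPM in HB and 48.1, 35.6 and 56.9 CPM in HS, against 65.7, 70.8 and 50.6 CPM in *Col3a1*-low and 27.7, 18.8 and 31.9 CPM in *Col3a1*-high hydralazine. It fell by 1.28 ± 0.20 on the log2 scale with the covariate (edgeR, adjusted p = 0.0231) and was called in 5 of 9 fits that each left out 1 library (adjusted p 0.00400 to 0.117). The labelled comparison gave -0.81 ± 0.38 (adjusted p = 0.338), HB overlapping the *Col3a1*-high libraries.

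A few further aortic genes were called with the covariate. *Dpep1*, a membrane dipeptidase counted among the fibroblast markers, stood at 33.1, 37.6 and 37.3 CPM in HB and 67.7, 56.2 and 104 CPM in HS, against 56.5, 61.9 and 83.0 CPM in *Col3a1*-low and 48.1, 51.0 and 60.3 CPM in *Col3a1*-high hydralazine (-0.93 ± 0.13, edgeR adjusted p = 0.0134). It was lower in HB than in every HS and every hydralazine library. The other fibroblast markers did not follow it, since 6 of 12 were higher and 6 lower (median -0.01). Of genes chosen after their values were seen, the sphingomyelinase *Smpd3* stood at 28.0, 19.8 and 32.3 CPM in HB, against 15.1, 14.0 and 9.85 CPM in *Col3a1*-low hydralazine and the amine oxidase *Aoc3*, an adhesion protein of vessel walls, at 297, 284 and 278 CPM in HB, against 212, 207 and 205 CPM in *Col3a1*-low hydralazine, with covariate fits of 1.06 ± 0.19 and 0.45 ± 0.08. *Dtx4*, a Notch pathway ubiquitin ligase, stood at 18.8, 15.3 and 14.9 CPM in HB, against 25.2, 27.2 and 24.2 CPM in *Col3a1*-low and 27.2, 27.3 and 30.4 CPM in *Col3a1*-high hydralazine (labelled comparison -0.73 ± 0.11, adjusted p = 0.0883), and the histone demethylase *Phf2* at 92.7, 87.3 and 79.9 CPM in HB, against 65.2, 57.0 and 61.3 CPM in *Col3a1*-low and 53.2, 60.3 and 49.5 CPM in *Col3a1*-high hydralazine (0.57 ± 0.09, adjusted p = 0.0883). *Leng8* stood at 233, 212 and 206 CPM in HB, against 166, 167 and 169 CPM in *Col3a1*-low hydralazine. *Lrrn1*, a leucine-rich repeat membrane protein, stood at 3.39, 2.83 and 2.22 CPM in HB, against 6.07, 6.28 and 6.52 CPM in *Col3a1*-low hydralazine. These 4 genes separated HB from all 6 hydralazine libraries and were called by edgeR with the covariate only, and by DESeq2 in the labelled comparison. With 1 library left out the covariate fit called *Phf2* in 2 of 9 fits. It called *Dtx4*, *Leng8*, *Lrrn1*, *Smpd3* and *Aoc3* in 3 of 9 each.

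**Figure D4:**
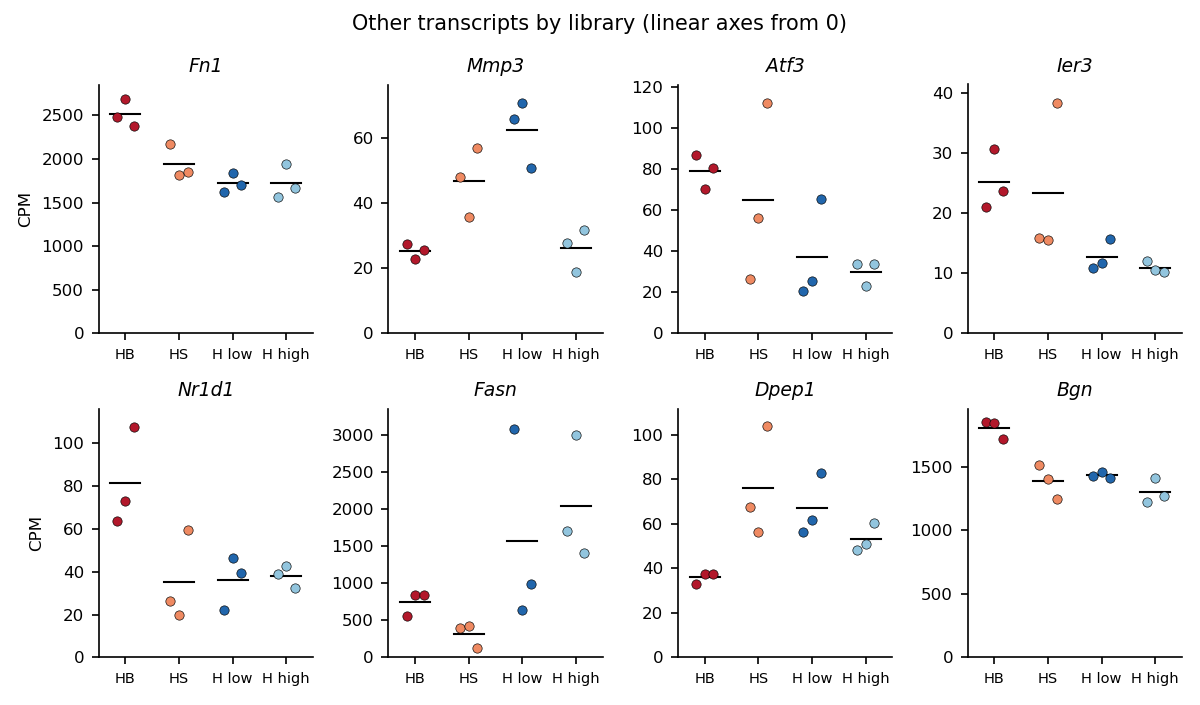
Levels in CPM (linear axes from 0) of *Fn1*, *Mmp3*, *Atf3*, *Ier3*, *Nr1d1*, *Fasn*, *Dpep1* and *Bgn* in HB, HS, *Col3a1*-low (H low) and *Col3a1*-high (H high) hydralazine. Dots are libraries and bars their means. The 3 HB libraries lie above both hydralazine sets for *Fn1*, *Atf3*, *Ier3*, *Nr1d1* and *Bgn* and below both for *Dpep1*, and *Fasn* is set high in H low by 1 library.

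The main smooth muscle genes overlapped between HB and *Col3a1*-low hydralazine. Of 22 contractile genes, all tested, 14 were higher and 8 lower (median 0.10). Beside 8.12% of all genes tested, 5 lay above every *Col3a1*-low library. *Acta2*, smooth muscle actin, stood at 11658, 10547 and 10322 CPM in HB, against 9981, 9438 and 10889 CPM in *Col3a1*-low hydralazine. *Myh11*, its myosin heavy chain, stood at 9911, 8908 and 9474 CPM in HB, against 8701, 9580.5 and 9825 CPM in *Col3a1*-low hydralazine. *Smtn*, the actin-binding smoothelin of mature smooth muscle, stood at 475, 403 and 467 CPM in HB, against 354, 400.5 and 372 CPM in *Col3a1*-low hydralazine, the intermediate filament gene *Des* at 67.2, 59.5 and 57.8 CPM in HB, against 52.8, 55.5 and 48.8 CPM in *Col3a1*-low hydralazine and caldesmon (*Cald1*) at 678, 657 and 659 CPM in HB, against 576, 606 and 605 CPM in *Col3a1*-low hydralazine, each above all 6 hydralazine libraries. None of the 22 was called with the covariate, while edgeR called 0 in the labelled comparison (9 at an unadjusted p under 0.05), where DESeq2 called 1 higher and 0 lower (*Pln*, also among the cardiomyocyte markers).

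TGF-beta pathway genes had 10 of 24 above every *Col3a1*-low library and 0 below, beside 8.12% and 7.88% of all genes tested. That number above was the largest of any list, though the lists differ in size. In the pathway 20 genes were higher and 4 lower, with a median of 0.15. The ligand *Tgfb2* stood at 103, 104 and 75.2 CPM in HB, against 66.2, 59.7 and 71.2 CPM in *Col3a1*-low hydralazine (labelled comparison 0.55 ± 0.12, edgeR adjusted p = 0.0945). The receptor *Tgfbr2* stood at 242, 246 and 247 CPM in HB, against 237, 215 and 229.8 CPM in *Col3a1*-low hydralazine and the coreceptor endoglin (*Eng*) at 44.0, 40.7 and 43.7 CPM in HB, against 33.2, 38.2 and 31.2 CPM in *Col3a1*-low hydralazine. The pathway's shared mediator *Smad4* stood at 134, 126 and 117 CPM in HB, against 115, 113 and 115 CPM in *Col3a1*-low hydralazine, its repressor *Ski* at 196, 187 and 208 CPM in HB, against 157, 163 and 166 CPM in *Col3a1*-low hydralazine. The induced matrix protein *Tgfbi* stood at 205, 206 and 186 CPM in HB, against 174, 182 and 161 CPM in *Col3a1*-low hydralazine. None of the 24 was called with the covariate, while edgeR called 0 in the labelled comparison (9 at an unadjusted p under 0.05), where DESeq2 called 1 higher and 0 lower (*Tgfb2*). Of 22 vascular ion channel and pump genes 20 passed the filter, 18 of them higher (median 0.14). Without overlap 5 lay above and 0 below, beside the same 8.12% and 7.88% of all genes tested. Among these 5 were the potassium channel *Kcnj15*, at 21.2, 21.4 and 22.7 CPM in HB, against 16.5, 16.2 and 15.2 CPM in *Col3a1*-low hydralazine, and the calcium pump *Atp2b4*, at 575, 440.1 and 471 CPM in HB, against 389, 412 and 421 CPM in *Col3a1*-low hydralazine. In this list none was called with the covariate, while edgeR called 0 in the labelled comparison (11 at an unadjusted p under 0.05), where DESeq2 called 4 higher and 0 lower.

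Some stress-responsive and clock genes were higher in HB, with more spread between libraries, and *Ier3* rose in the fit with the covariate. *Ier3*, an early response gene that modulates survival signals, stood at 21.0, 30.8 and 23.6 CPM in HB, against 10.9, 11.7 and 15.7 CPM in *Col3a1*-low and 12.0, 10.6 and 10.2 CPM in *Col3a1*-high hydralazine (labelled comparison 1.07 ± 0.16, edgeR adjusted p = 0.0883, and 0.94 ± 0.17 with the covariate, adjusted p = 0.0351). *Atf3*, a stress-induced transcription factor, stood at 86.7, 70.0 and 80.2 CPM in HB and 26.5, 56.2 and 112 CPM in HS, against 20.6, 25.5 and 65.6 CPM in *Col3a1*-low and 33.5, 23.1 and 33.6 CPM in *Col3a1*-high hydralazine. It was called in neither edgeR fit and was called by DESeq2. HS replicate 3 exceeded every HB library for both genes. Of 23 immediate early genes 21 passed the filter, with 14 higher and 7 lower (median 0.11, and 0.35 without HB replicate 2). *Fos*, at 30.2, 22.3 and 69.1 CPM in HB, against 37.8, 39.6 and 29.3 CPM in *Col3a1*-low hydralazine, and *Egr1*, at 20.9, 16.5 and 23.9 CPM in HB, against 15.9, 17.8 and 10.9 CPM in *Col3a1*-low hydralazine, overlapped, while *Jund*, an AP-1 subunit, at 103, 116 and 93.3 CPM in HB, against 75.0, 68.7 and 87.2 CPM in *Col3a1*-low hydralazine, did not. Of the 21, edgeR called 0 in the labelled comparison (8 at an unadjusted p under 0.05), where DESeq2 called 4 higher and 0 lower (*Jun*, *Jund*, *Atf3* and *Ier3*).

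Of 16 clock genes 15 passed the filter, 11 higher and 4 lower with a median of 0.56. The repressor *Nr1d1* (REV-ERB alpha) stood at 63.8, 73.0 and 107 CPM in HB, against 22.3, 46.2 and 39.5 CPM in *Col3a1*-low and 39.0, 42.7 and 32.4 CPM in *Col3a1*-high hydralazine (labelled comparison 1.13 ± 0.21, edgeR adjusted p = 0.0945), and its partner *Nr1d2* at 162, 190.1 and 262 CPM in HB, against 68.5, 152 and 159.7 CPM in *Col3a1*-low hydralazine. The activator *Arntl* (BMAL1), which REV-ERB proteins repress, stood at 28.5, 28.8 and 16.5 CPM in HB, against 58.7, 37.9 and 29.4 CPM in *Col3a1*-low hydralazine, lower in every HB library. *Per2*, a negative limb gene of the clock, stood at 47.0, 51.7 and 67.8 CPM in HB, against 26.9, 33.3 and 46.5 CPM in *Col3a1*-low hydralazine. Among HB libraries, replicate 3 was highest for *Nr1d1*, *Nr1d2* and *Per2* and lowest for *Arntl*. Aortas were harvested within a window around midday, no library has a labelled time, and the part of harvest time in these values was not tested. None of the 15 was called with the covariate, while edgeR called 0 in the labelled comparison (5 at an unadjusted p under 0.05), where DESeq2 called 2 higher and 0 lower (*Nr1d1* and *Bhlhe41*).

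Most lipid synthesis genes were lower in HB, and 1 hydralazine library carried much of the difference. Of 22 fatty acid synthesis genes, all tested, 3 were higher and 19 lower (median -0.46). Beside 7.88% of all genes tested, 3 had every HB library below every *Col3a1*-low library. *Fasn*, fatty acid synthase, stood at 563, 834 and 842 CPM in HB, against 3074, 644 and 985 CPM in *Col3a1*-low hydralazine, and *Acly*, which supplies its acetyl-CoA, at 193, 273 and 222 CPM in HB, against 716, 226 and 284 CPM in *Col3a1*-low hydralazine, hydralazine replicate 1 being the high library in both. *Scd1*, a desaturase, stood at 797, 936 and 1235 CPM in HB, against 5579, 1457 and 1875 CPM in *Col3a1*-low hydralazine and *Acss2*, an acetyl-CoA synthetase, at 28.5, 41.1 and 42.8 CPM in HB, against 118, 46.4 and 54.9 CPM in *Col3a1*-low hydralazine, with every HB library below. Without hydralazine replicate 1 the median of the 22 was -0.05. In HS against all 3 *Col3a1*-low libraries 22 of 22 were lower (median -0.72) and 8 lay below without overlap. None of the 22 was called with the covariate, while edgeR called 0 in the labelled comparison (13 at an unadjusted p under 0.05), where DESeq2 called 0 higher and 4 lower (*Acly*, *Scd1*, *Agpat2* and *Acss2*). In cholesterol synthesis and uptake 8 of 24 were higher and 16 lower (median -0.06), with *Pmvk*, the phosphomevalonate kinase, at 13.4, 12.6 and 11.8 CPM in HB, against 26.3, 18.1 and 17.6 CPM in *Col3a1*-low hydralazine. The regulator *Srebf2* stood at 57.4, 48.4 and 45.0 CPM in HB, against 43.6, 31.2 and 34.7 CPM in *Col3a1*-low hydralazine. None of these 24 was called with the covariate, while edgeR called 0 in the labelled comparison (10 at an unadjusted p under 0.05), where DESeq2 called 0 higher and 3 lower (*Pmvk*, *Sc5d* and *Insig1*).

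Most energy genes were slightly lower in HB. All 25 oxidative phosphorylation genes were lower (median -0.12, 1 without overlap), as were 20 of 22 fatty acid oxidation genes (median -0.17, 1 without overlap) and 14 of 19 glycolysis genes (median -0.12, 3 without overlap). Among all genes tested 7.88% were lower without overlap. In HS against the same *Col3a1*-low libraries 25, 20 and 18 were lower in that order (medians -0.14, -0.08 and -0.30). Of these 1, 1 and 9 were without overlap. None of these genes was called with the covariate. In the labelled comparison edgeR called 0 of each list, with 8, 12 and 6 at an unadjusted p under 0.05 in the order given, and DESeq2 called 1 lower, the glycolytic *Ldha*. Without hydralazine replicate 1 the oxidative phosphorylation median was 0.01. Adipocyte markers were lower in 12 of 13 (median -0.30) and brown adipocyte markers in 8 of 9 (median -0.21), of which only the elongase *Elovl3* was without overlap, and the summed adipocyte level was 1269, 1952 and 1354 CPM in HB and 2251, 1297 and 1559 CPM in *Col3a1*-low hydralazine. Without hydralazine replicate 1 these medians were 0.17 each. The part of residual fat in the lipid and energy genes was not tested.

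Heart transcripts were concentrated in HB replicate 2. The 8 cardiomyocyte markers tested of 9 were all higher in HB (median 1.76), and their sum with the ninth was 257, 946 and 296 CPM in HB, against 197, 257 and 237 CPM in *Col3a1*-low hydralazine. *Myh6*, a cardiac myosin heavy chain, stood at 7.81, 403 and 41.2 CPM in HB, against 2.65, 2.44 and 12.3 CPM in *Col3a1*-low hydralazine. *Actc1*, cardiac actin, stood at 5.60, 111 and 14.0 CPM in HB, against 2.34, 3.66 and 4.73 CPM in *Col3a1*-low hydralazine. Without HB replicate 2 the median was 0.58. *Actc1* exceeded *Col3a1*-low hydralazine in every HB library, was called in neither edgeR fit and was called by DESeq2 with 5 other members, and the part of heart tissue in it was not tested. *Lars2*, the mitochondrial leucyl-tRNA synthetase, stood at 354, 16.1 and 19.7 CPM in HB, against 11.8, 7.15 and 11.6 CPM in *Col3a1*-low hydralazine, its mean set by HB replicate 1. Erythroid markers were lower in all 5 tested of 7 (median -0.95), and the globin *Hbb-bs* stood at 27.3, 26.6 and 0 CPM in HB, against 58.7, 74.7 and 47.1 CPM in *Col3a1*-low hydralazine, the 0 in HB replicate 3 lying beside 18.2, 12.1 and 8.90 CPM of the adjacent and near-identical *Hbb-bt* in HB.

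HB was also compared with HS, the labelled group most like it, since both were collected on day 60 with hydralazine and an antagonist. Of 12800 genes tested 0 were called by edgeR (0%), with 855 at an unadjusted p under 0.05. DESeq2 called 37 of the 5380 genes to which it gave an adjusted p. Leaving out HS replicate 1 gave 2 calls. HS replicates differed widely in liver-type RNA, with summed hepatocyte markers of 3516, 1385 and 366 CPM. The genes with the smallest p were *Upp2*, a liver uridine phosphorylase, at 8.32, 10.3 and 7.37 CPM in HB and 1.36, 1.93 and 2.26 CPM in HS (2.20 ± 0.28, adjusted p = 0.404), and *Actg2*, enteric smooth muscle actin, at 204, 199 and 186 CPM in HB and 125, 131 and 133 CPM in HS (0.60 ± 0.08, adjusted p = 0.404). *Ank*, a pyrophosphate exporter that limits calcification, stood at 69.9, 58.7 and 67.3 CPM in HB and 41.3, 41.4 and 42.7 CPM in HS (0.64 ± 0.10, adjusted p = 0.526). *Tmem184b* (0.59 ± 0.10) and the matrix protein gene *Ecm1* (0.52 ± 0.09) followed.

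*Fn1* and *Mmp3* separated HB from HS, HB being above every HS library for *Fn1* and below every HS library for *Mmp3*, with log2 fold changes of HB over HS of 0.37 ± 0.11 and -0.90 ± 0.17 (edgeR, adjusted p = 0.679 and 0.526). *Cyp3a11* had a log2 fold change of -0.13 ± 0.70, within the wide spread of HS. The HS comparison with the same 6 hydralazine libraries called 0 of 13304 genes by edgeR, with 1805 at an unadjusted p under 0.05 and 52 called by DESeq2. It shares its reference libraries with the HB comparison, so calls were not counted across them.

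**Figure D5:**
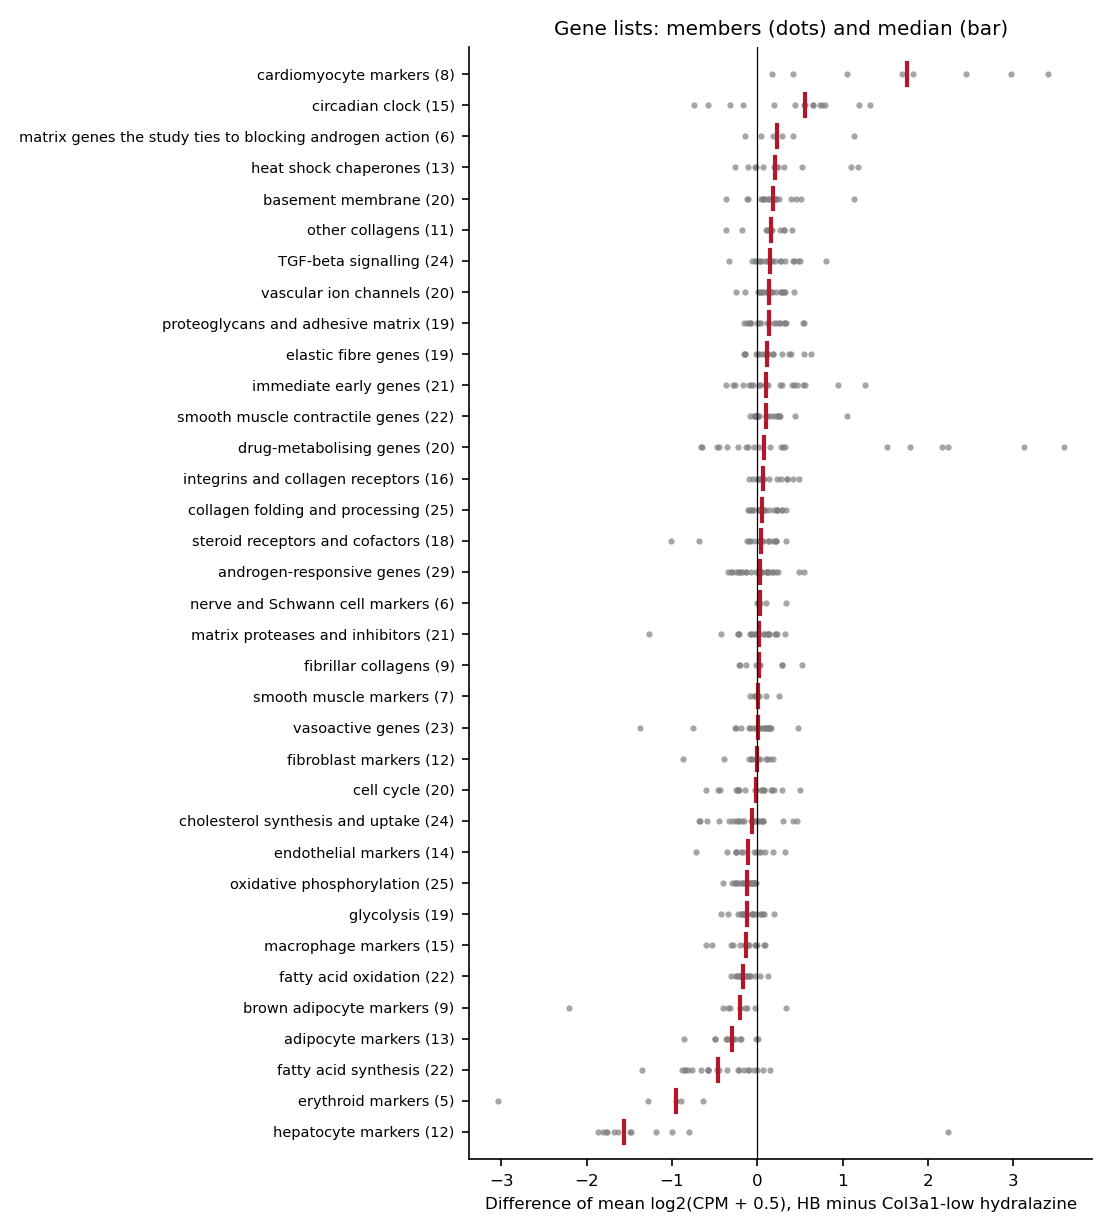
Difference of mean log2(CPM + 0.5), HB minus *Col3a1*-low hydralazine, for the members of each gene list with at least 5 genes tested. Dots are genes, red bars list medians, and numbers in parentheses count the genes tested. Hepatocyte markers lie lowest, with a median of -1.57 and *Cyp3a11* as the 1 member above 0, and cardiomyocyte markers lie highest, with a median of 1.76 set by HB replicate 2.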

How the data were processed

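Aortic RNA of 30 mice was sequenced after ribosomal depletion as stranded total RNA. The authors assigned reads to genes of mm39 with RSEM after CASAVA 1.8.4 base calling, and deposited expected counts and TPM for each library, the TPM being the authors' length-scaled estimate and not used here. Expected counts were whole in 97.4 to 97.8% of values (tolerance 1e-06), were rounded, and came to 5644869 to 8064586 per library in the 12 HB, HS and hydralazine libraries. Samples were grouped by genotype and treatment labels. CPM used TMM factors over all 30 libraries, and differences used log2(CPM + 0.5). Labelled groups were compared in R 4.3.3 with edgeR 4.0.16 (filterByExpr, quasi-likelihood F test, two-sided, called at an adjusted p of 0.05), with DESeq2 1.42.0 as an alternative. The standard error is the absolute log2 fold change over the square root of F. Separate animals are taken as replicates, and intervals cover counting error only. Per the labels' protocol, aortas were homogenized and extracted in batches of 10, each holding 1 aorta of every treatment group. The labels do not say which library was in which of these batches (their batch field is 1 throughout), so no block was fitted and the part of the extraction batch was not tested.

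The gene lists and the set of libraries were chosen with earlier results of these data known. Named genes were *Col3a1*, *Nr3c2*, the called genes or the 10 with the smallest p, the 5 with the smallest p between HB and HS, up to 10 higher and 10 lower genes without overlap by difference, and list members as examples. Predicted genes were passed over, and some genes that the rule or lists hold are not reported here. Alternatives were another normalization, other filters on low counts, a fit of 4 groups, log2 *Col3a1* as a covariate, other *Col3a1* limits, a pseudocount of 2 and leaving out each library. The edgeR step was tested on simulated counts.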

Additional observations from a re-analysis of the deposited data

Results flagged for a closer look

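Among the 6 hydralazine libraries, 7 of 36 named genes had a library set apart from the other 5, by a gap to the nearest library that, over the group's range, was above Dixon's 95% critical value. Such gaps also arise by chance in a small share of groups of this size. *Sult2a7* reached 0.171 CPM in hydralazine replicate 3, from 1 count, with the other 5 libraries at 0. Hydralazine replicate 4 was high for *Mup15* (0.597 CPM), *C8a* (67.5 CPM), *Upp2* (43.9 CPM) and *Cyp2a5* (90.4 CPM), and it also had the highest *Alb* of the group at 9120 CPM. Hydralazine replicate 6 was high for *Ier3* (15.7 CPM) and *Atf3* (65.6 CPM), both immediate early genes, and for *Atf3* it lay just below the lowest HB library at 70.0 CPM. The part of liver-type RNA in the values of replicate 4 was not tested.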

How the results depend on the processing

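The number of genes called in HB against hydralazine was 573 (166 higher, 407 lower) with DESeq2, 76 with log2 *Col3a1* as a covariate, 0 in a fit of 4 VEDS groups and 1 to 56 when 1 library was left out. With the covariate it was 6 to 219 when 1 library was left out, a check added after seeing the data. HB against HS gave 37 calls with DESeq2, 1 in the fit of 4 groups and 0 to 2 with 1 library left out, and HS against hydralazine gave 52, 1 and 0. Genes without overlap between HB and *Col3a1*-low hydralazine numbered 1600 to 1909 higher and 1580 to 1829 lower with 1 library left out. Another normalization in edgeR and a 1 CPM filter left the 2 calls at 2, and no filter gave 3. The log2 fold change of *Cyp2a5* turned to 1.57 with the covariate, 0.15 without HB replicate 1, 0.75 without hydralazine replicate 4 and 0.02 without hydralazine replicate 5. Over all fits leaving out 1 library it ranged from -0.27 to 0.75. That of *Nr3c2* turned to -0.11 with the covariate and, against HS, to a negative value without HS replicate 1, in a range of -0.039 to 0.23 over the fits leaving out 1 library. None of these was called. The causes were not tested. No paired analysis was possible because the replicate numbers follow accession order and the labels do not give each library's extraction batch. The 3 libraries in HB and the 5644869 to 8064586 counts per library limit the sparse liver-type genes most, and for genes such as *Sult2a7* single counts decide the fold change.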
